A study of Homo sapiens with 18 samples.

Results

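The genes described here are 53 human genes of DNA replication, chosen by their gene symbols and all found, of 58395 genes in the deposited tables. They code for the proteins that license replication origins and unwind DNA, the DNA polymerases and their primase, the sliding clamp and its loader, single-strand binding and Okazaki fragment proteins, enzymes of nucleotide synthesis, and proteins of maintenance methylation and fork protection. The cells were HeyA8, an established line from ovarian cancer, and PC3, one from prostate cancer, both human and both with the genotype given as wt. Cells in 6-well plates were transfected with 10 nM of a short RNA with the lipid reagent RNAiMax, and total RNA was sequenced 48 h later. Each line received sNT8, sG5C or sCAG, which gives 6 groups of 3 libraries lettered A to C, and all 18 libraries came from transfected cells, with no untransfected group among those analysed. Comparisons were made with sNT8, as in the deposited tables, and the title of the study names DISE, a form of cell death that short RNAs can set off. The titles of the sG5C libraries carry another name, and their treatment field was used. The labels do not say that libraries of a group came from separate cultures, so the p-values measure the spread between these libraries, which may be technical.

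Each library held between 31232377 and 41384838 reads counted in genes. Of the markers of each tissue, HeyA8 expressed KRT8, KRT18 and the ovarian factor PAX8 but had CDH1 at 0 and EPCAM near 0 in its sNT8 libraries. In PC3, KRT18 and KRT19 were high while the prostate markers KLK3 and FOLH1 were at 0 in the sNT8 libraries. The 5 leukocyte markers summed to at most 1.26 in RPKM, which is reads scaled to exon length and library total, in any library and the 3 fibroblast markers to at most 0.337. The 4 endothelial markers summed to between 69.7 and 77.9 in every HeyA8 library, most of it TIE1, and to between 3.53 and 5.74 in PC3. In HeyA8 the 5 epithelial markers moved with the short RNA, with sums of 175 to 190.0 after sNT8, 80.4 to 84.7 after sG5C and 222 to 242 after sCAG. The 3 mesenchymal markers summed to 1218 to 1302, 646 to 666 and 1941 to 2058, mostly through FN1 (means of 548, 82.3 and 1473), while VIM went from 676 to 545 and 474 and KRT18 was at 85.0 after sNT8 and 85.2 after sCAG. In PC3 the epithelial sums were 184 to 202 after sNT8, 211 to 237 after sG5C and 253 to 261 after sCAG. This was mostly KRT19 (means of 135, 162 and 203), with KRT8 at 8.69, 12.5 and 13.3. EPCAM went from 5.69 to 2.86 and 3.22, KRT18 from 45.7 to 46.9 and 37.1, and CDH1 from 0.503 to 0.818 and 0.0758. The mesenchymal sums there were 91.5 to 93.5, 137 to 148 and 87.4 to 88.5, higher after sG5C where those of HeyA8 were lower. Within them VIM had means of 73.7, 109 and 51.7, CDH2 of 14.4, 24.0 and 33.2 and FN1 of 4.36, 8.84 and 3.13. The part of these shifts in the results for the replication genes was not tested.

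Replication starts at origins that are licensed before S phase, when the origin recognition complex, with CDC6 and CDT1, loads the MCM helicase onto DNA, a step that geminin (GMNN) blocks. In S phase a kinase of CDC7 and DBF4, together with CDC45, the GINS complex and MCM10, turns the loaded helicase on, polymerase alpha and primase start new strands, and polymerases delta and epsilon extend them on the clamp PCNA. Many of these genes are transcribed as cells enter S phase under the E2F transcription factors, which bind short sites close to the start of the gene, and their RNA is high in dividing cells. In RNA from a whole culture, fewer cells in S phase and less RNA of these genes per cell cannot be told apart.

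Promoter windows of 47 of the 53 genes were found in the RefSeq table (GRCh38.p14), each with 250 bases before and 50 bases after the annotated start. The E2F core was searched on both strands in the forms TTCCCGC and TTGGCGC, and 27 of the 47 windows (57.4%) held at least 1 of them, against 9.23% of all 35116 windows. The CCAAT box, CCAAT on either strand, stood in 27 of the 47 (57.4%) against 34.6% of all windows, and 18 members (38.3%) held both motifs against 3.35%. In 4 of the 18, those of ORC1, MCM7, PRIM1 and POLE, an E2F core shared bases with a CCAAT box. That was 8.51% of the 47 windows against 0.521% of all windows. The cell cycle homology region, TTTGAA or TTCGAA, was in 3 member windows (6.38%) against 16.4% of all. By role, an E2F core was in 5 of 6 windows of the clamp and its loader, 4 of 6 of the MCM genes, 4 of 6 of the helicase activation genes, 4 of 9 of origin recognition and loading, 4 of 8 of the polymerases and 2 of 4 of nucleotide synthesis. It was in 2 of 3 windows of single-strand binding and Okazaki fragment genes, 1 of 2 of maintenance methylation and 1 of 3 of fork protection. A match of these letters is a description and does not show that a factor was bound.

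Windows are shown for the 4 genes with an E2F core whose response to sG5C differed most between the lines (CDC6, GINS2, CLSPN and UHRF1) and for 2 with a core whose difference was called but smaller (MCM7 and RRM1). Each is written 5′ to 3′ on the strand of the gene, with the E2F cores of either orientation in capitals and base 251 of the window as the annotated start.
CDC6, chr17:40287629-40287928, plus strand: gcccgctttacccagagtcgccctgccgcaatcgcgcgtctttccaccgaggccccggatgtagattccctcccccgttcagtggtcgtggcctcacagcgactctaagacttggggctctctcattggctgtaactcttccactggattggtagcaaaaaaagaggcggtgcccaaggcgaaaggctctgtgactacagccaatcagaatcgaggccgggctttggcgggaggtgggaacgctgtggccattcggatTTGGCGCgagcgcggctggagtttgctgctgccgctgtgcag
GINS2, chr16:85688905-85689204, minus strand: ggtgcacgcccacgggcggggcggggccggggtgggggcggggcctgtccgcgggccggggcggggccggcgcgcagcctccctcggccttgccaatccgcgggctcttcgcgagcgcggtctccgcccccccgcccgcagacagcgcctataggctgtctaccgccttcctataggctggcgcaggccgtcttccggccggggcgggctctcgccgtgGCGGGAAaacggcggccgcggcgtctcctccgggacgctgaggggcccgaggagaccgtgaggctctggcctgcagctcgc
CLSPN, chr1:35769929-35770228, minus strand: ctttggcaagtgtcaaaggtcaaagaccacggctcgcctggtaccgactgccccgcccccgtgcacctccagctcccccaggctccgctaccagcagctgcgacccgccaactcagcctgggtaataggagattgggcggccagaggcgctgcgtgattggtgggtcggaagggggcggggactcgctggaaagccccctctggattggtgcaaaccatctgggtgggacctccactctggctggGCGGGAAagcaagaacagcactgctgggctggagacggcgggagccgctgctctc
UHRF1, chr19:4909251-4909550, plus strand: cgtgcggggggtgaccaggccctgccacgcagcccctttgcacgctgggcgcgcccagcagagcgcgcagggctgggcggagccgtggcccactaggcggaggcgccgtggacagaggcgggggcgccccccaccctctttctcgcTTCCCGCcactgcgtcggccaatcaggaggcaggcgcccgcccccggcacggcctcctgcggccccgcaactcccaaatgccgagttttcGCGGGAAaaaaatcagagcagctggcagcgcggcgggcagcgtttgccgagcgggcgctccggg
MCM7, chr7:100101348-100101647, minus strand: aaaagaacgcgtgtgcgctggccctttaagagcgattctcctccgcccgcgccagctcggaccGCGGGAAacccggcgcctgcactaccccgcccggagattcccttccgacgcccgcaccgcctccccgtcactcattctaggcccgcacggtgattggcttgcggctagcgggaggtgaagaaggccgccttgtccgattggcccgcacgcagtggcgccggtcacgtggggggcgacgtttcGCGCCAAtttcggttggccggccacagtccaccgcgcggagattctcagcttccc
RRM1, chr11:4094435-4094734, plus strand: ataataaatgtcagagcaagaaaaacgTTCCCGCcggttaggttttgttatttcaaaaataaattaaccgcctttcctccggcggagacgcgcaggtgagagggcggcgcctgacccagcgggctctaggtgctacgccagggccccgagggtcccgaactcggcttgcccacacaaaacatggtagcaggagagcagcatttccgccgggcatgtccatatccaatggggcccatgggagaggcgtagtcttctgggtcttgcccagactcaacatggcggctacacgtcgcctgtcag
The core of CDC6 began at base 259 of its window, that of GINS2 at base 220 and that of CLSPN at base 246. UHRF1 had cores at bases 147 and 237 and MCM7 at bases 64 and 246, while the core of RRM1 stood far upstream, at base 28. The windows of MCM10 and CDC45, which are among the genes that differed most, did not hold these letters.

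After sG5C more of the replication genes rose than fell in HeyA8, and most fell in PC3. In HeyA8, 29 of the 53 genes rose against sNT8, 7 fell and 17 did not pass the test, with a median log2 fold change of 0.18. In PC3, 43 fell, 2 rose and 8 did not pass, with a median of -0.68. A log2 fold change here is the difference between group means of log2(normalized count + 1), where a normalized count is a read count divided by the size factor of its library. A gene was said to rise or fall where the Benjamini-Hochberg adjusted p over all genes tested was under 0.05 in limma.

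Both lines responded broadly, so these counts are read against all genes. In HeyA8, 24.5% of all genes tested rose and 27.9% fell after sG5C (52.4% in all), and in PC3 28.5% rose and 29.2% fell (57.7% in all). The median over all genes was 0.0104 in HeyA8 and -0.00704 in PC3. The share of members that rose in HeyA8 (29 of 53) was above that of all genes, and so was the share that fell in PC3 (43 of 53). The sG5C and sNT8 libraries did not overlap for 36 members in HeyA8 and 46 in PC3, against 58.2% and 62.2% of all genes. With library totals as the scaling, the median of all genes in HeyA8 moved by 0.131, 7425 genes rose and 4834 fell in place of 5497 and 6245, and 39 members rose. The members gained were CDT1, DNMT1, LIG1, MCM2, MCM4, MCM5, PCNA, POLA2, POLD3 and TIMELESS, and the falls of CDC7 and ORC2 were lost.

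**Figure D1:**
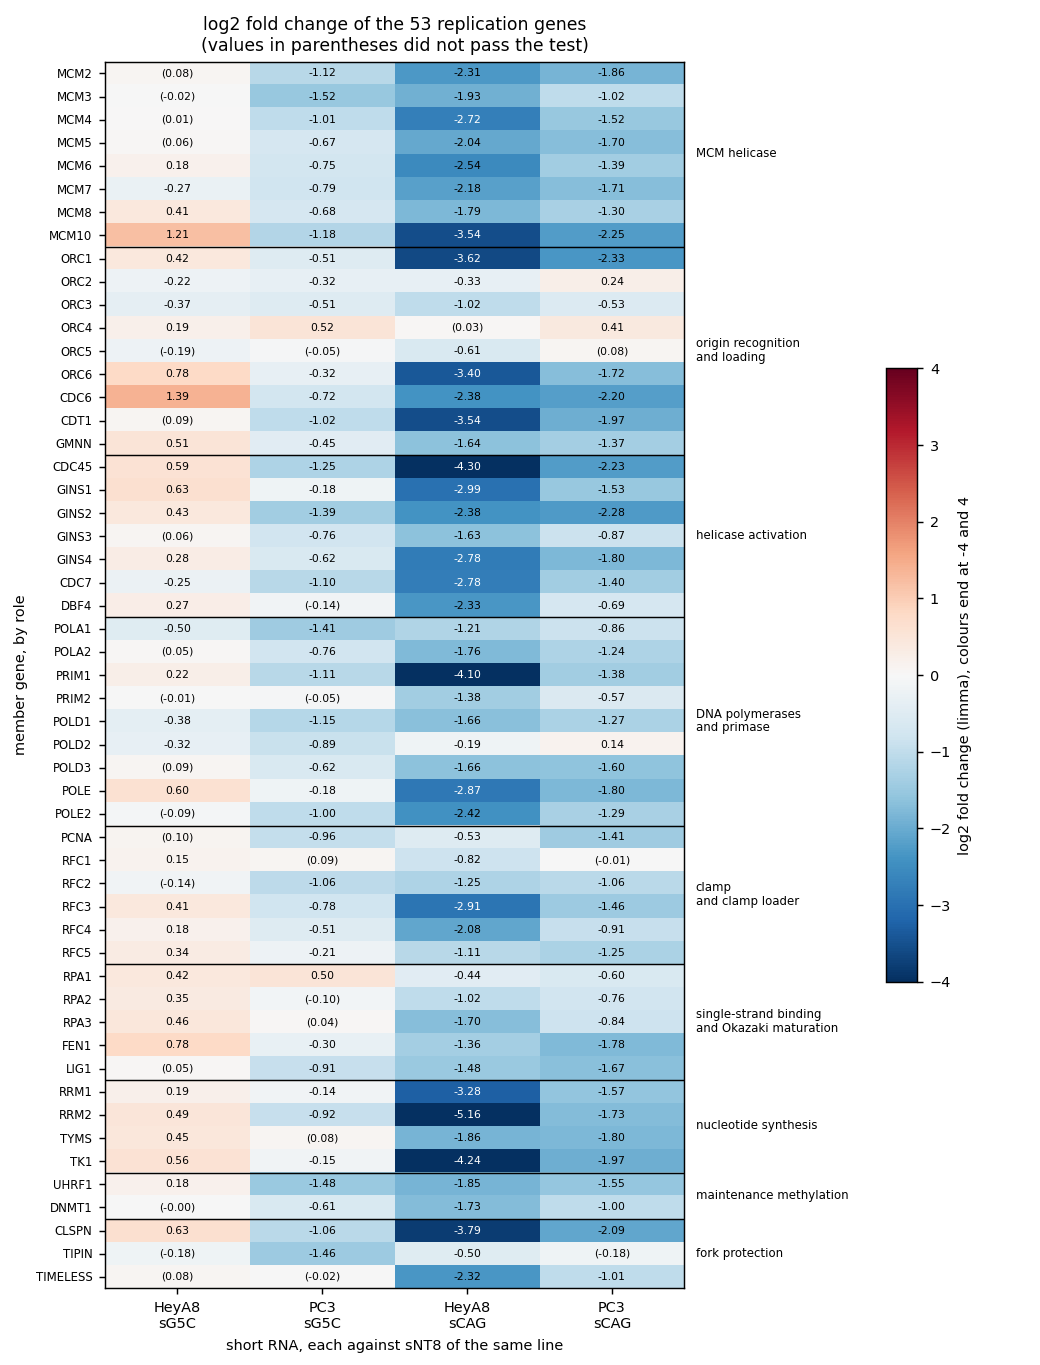
Log2 fold change of each of the 53 genes (rows, grouped by role) in 4 comparisons with sNT8 (columns: HeyA8 sG5C, PC3 sG5C, HeyA8 sCAG, PC3 sCAG), 3 libraries a group, with values in parentheses where the gene did not pass the test and colours that end at -4 and 4. The HeyA8 sG5C column holds 29 genes that rose and 7 that fell, the PC3 sG5C column 2 and 43, and in the HeyA8 sCAG column 52 fell and ORC4 did not pass.

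Gene by gene, 22 members rose in HeyA8 and fell in PC3, 7 fell in both lines (CDC7, MCM7, ORC2, ORC3, POLA1, POLD1 and POLD2) and 2 rose in both (ORC4 and RPA1). A further 14 fell in PC3 alone among the calls, 5 rose in HeyA8 alone (DBF4, RFC1, RPA2, RPA3 and TYMS), and ORC5, PRIM2 and TIMELESS passed in neither line. No member fell in HeyA8 and rose in PC3. How many of all genes had each pair of calls was not counted, so these counts have no share of all genes beside them. The difference between the lines was tested with edgeR on the reads recovered from the tables of all 18 libraries, as the sG5C effect in PC3 minus that in HeyA8. It was negative and past the threshold for 45 of 53 members, against 14.6% of all genes, and positive for ORC4, against 18.3%. The median difference over the members was -0.84 on the log2 scale, and 32.8% of all genes had a called difference. With library totals, ORC4 was no longer called and ORC2, ORC3, PRIM2, RFC1 and TIMELESS were called lower in PC3, so that 50 members were lower and 0 higher. That scaling moved the median difference of all genes by -0.206 and gave 3212 genes higher and 6548 lower in place of 4953 and 3944. All 22 members with opposite calls had a called difference, and that held in each of the 17 alternative settings. The 22 were picked by their calls in the same libraries, so this is not separate support. Both calls of 12 of the 22 held in each of the 13 alternative settings of their own line (CDC45, CDC6, CLSPN, FEN1, GINS2, GMNN, MCM10, MCM8, ORC1, ORC6, RFC3 and RRM2). For the other 10, at least 1 call was lost in some setting.

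**Figure D2:**
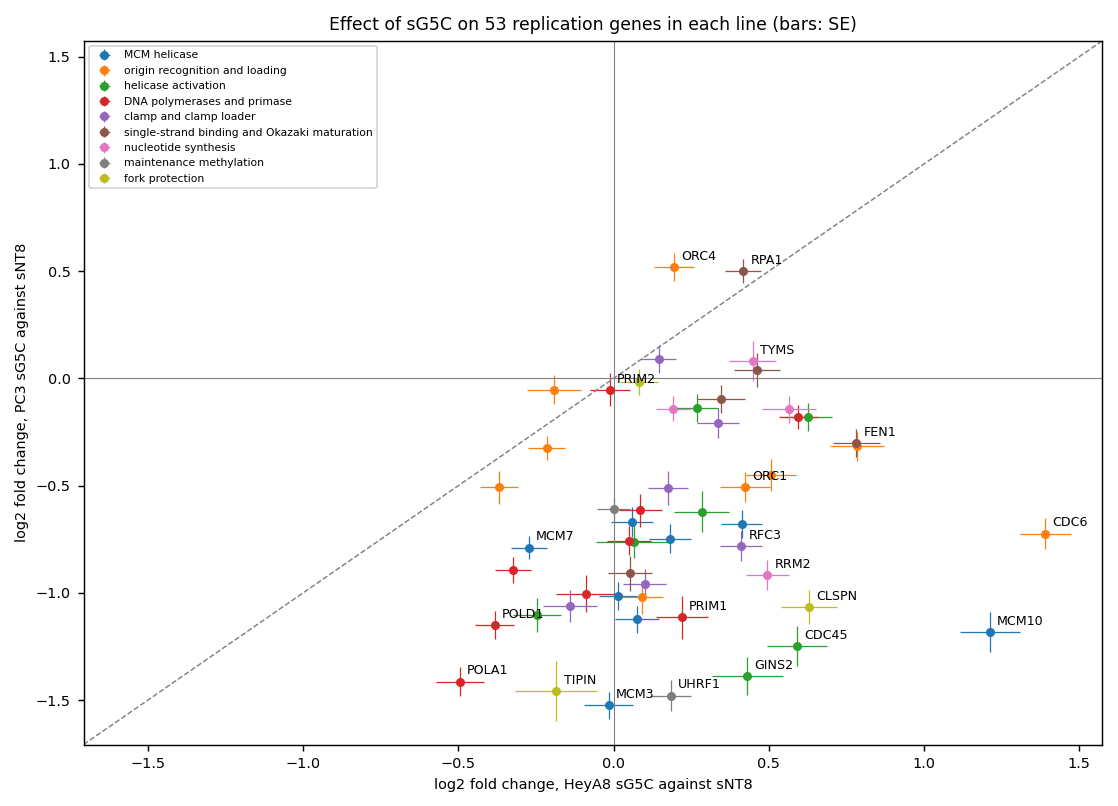
Log2 fold change of each of the 53 genes after sG5C in HeyA8 (horizontal axis) and PC3 (vertical axis), with bars for the standard error, n = 3 libraries a group. Genes lie mostly below the diagonal, with CDC6 at 1.39 in HeyA8 and -0.72 in PC3, and ORC4 and RPA1 above 0 on both axes.

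Of the members with an E2F core, by these calls, 13 were among the 21 windows of genes that rose in HeyA8 and fell in PC3, 4 among the 7 that fell in both lines, 7 among the 11 that fell in PC3 alone, 2 among the 3 that rose in HeyA8 alone and 1 among the 2 that rose in both. The windows of ORC5, PRIM2 and TIMELESS did not hold it. The shares are counts over few windows and no test was made of them.

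The MCM genes went different ways in HeyA8 and all fell in PC3. MCM2 to MCM7 code for the 6 subunits of the replicative helicase, MCM8 for a related protein of homologous recombination repair, and MCM10 for a factor that activates the helicase. After sG5C, 3 of these 8 genes rose in HeyA8 (MCM6, MCM8 and MCM10), MCM7 fell and the others did not pass, while all 8 fell in PC3. The median log2 fold change was 0.07 in HeyA8, over values from -0.27 to 1.21, and -0.90 in PC3, and all 8 had a lower response in PC3 than in HeyA8 (median difference -1.04).

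MCM10 (chromosome 10, 13161554 to 13211104 in the deposited annotation, hg38) differed most between the lines. In HeyA8 its normalized counts, given here and below for libraries A, B and C in that order, were 331, 468 and 375 after sNT8 and 898, 919.6 and 878 after sG5C. In PC3 they were 739, 772 and 796 after sNT8 and 372, 332 and 312 after sG5C. The groups did not overlap in either line, and the gene rose in HeyA8 (log2 fold change 1.21 ± 0.10 SE, adjusted p = 2.61e-11) and fell in PC3 (-1.18 ± 0.093, adjusted p = 8.34e-12). The difference between the lines was -2.37 ± 0.14 (edgeR adjusted p = 7.23e-16).

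The largest fall in PC3 was that of MCM3 (chromosome 6, 52264009 to 52284881), from 4252, 4147 and 4238 to 1543, 1499 and 1356 normalized counts. Each sG5C library was well below each sNT8 library, with a log2 fold change of -1.52 ± 0.063 (adjusted p = 7.95e-18). In HeyA8 the MCM3 counts were 1954, 2179 and 1759 after sNT8 and 1913, 2163 and 1751 after sG5C, which overlap. The log2 fold change there was -0.016 ± 0.078 and did not pass (adjusted p = 0.884). MCM2 and MCM4 showed the same pattern, with log2 fold changes of -1.12 ± 0.063 and -1.01 ± 0.064 in PC3, while their values in HeyA8 were 0.075 and 0.014 and did not pass. The smallest falls in PC3 were those of MCM5 (-0.67 ± 0.070) and MCM8 (-0.68 ± 0.064).

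MCM7 fell in both lines. Its counts went from 5164, 5252 and 4678 to 4250.1, 4263 and 3971 in HeyA8 and from 8343, 8485 and 8489 to 4903, 5058 and 4694 in PC3, with no overlap in either. The log2 fold changes were -0.27 ± 0.057 and -0.79 ± 0.055, and the difference of -0.50 ± 0.076 was the smallest of the 8 genes (edgeR adjusted p = 2.10e-06). MCM7 shares 8.94% of its exon bases with AP4M1 on the opposite strand, and whether the counting used strand was not stated. MCM8 rose in HeyA8 from 1293, 1368 and 1189 to 1665, 1789 and 1666 and fell in PC3 from 2349, 2271 and 2504 to 1484, 1475 and 1486. The smaller rise of MCM6 in HeyA8 (0.18 ± 0.068, adjusted p = 0.02499) had overlapping groups and was not called without sNT8 A (adjusted p = 0.109), sNT8 C (0.0997) or sG5C B (0.193).

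**Figure D3:**
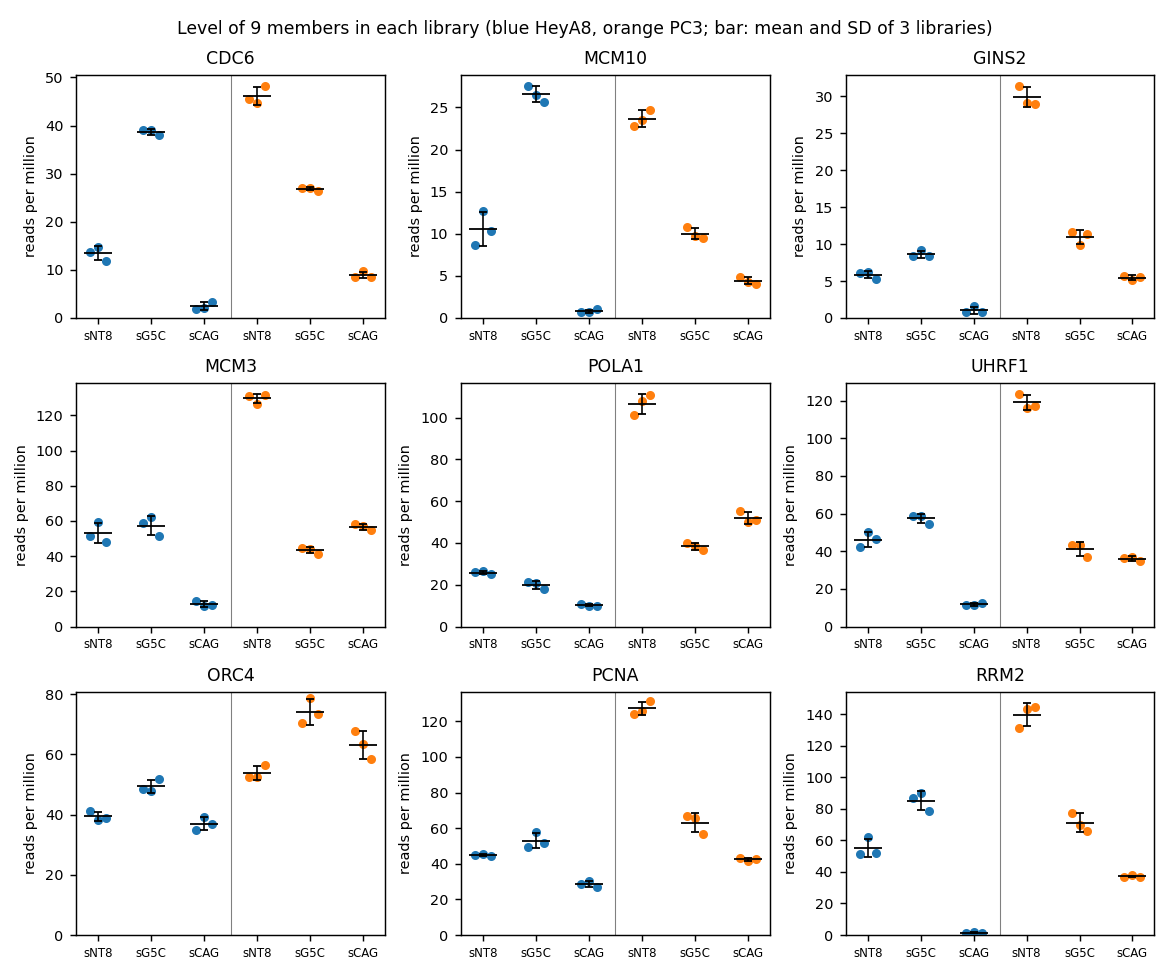
Counts as CPM, reads scaled to the library total, for 9 members (CDC6, MCM10, GINS2, MCM3, POLA1, UHRF1, ORC4, PCNA and RRM2), with a point for each of the 3 libraries of the 6 groups (HeyA8 left, PC3 right) and bars for the group mean and SD. CDC6, MCM10, GINS2 and RRM2 lie higher after sG5C than after sNT8 in HeyA8 and lower in PC3, while ORC4 lies higher after sG5C in both lines.

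Among the origin recognition and loading genes, CDC6, ORC6, ORC1 and GMNN rose in HeyA8 and fell in PC3, while ORC2 and ORC3 fell in both lines. Of the 9 genes, 5 rose in HeyA8, with ORC4 as the fifth, and 2 fell, and in PC3 7 fell, ORC4 rose and ORC5 did not pass. The median log2 fold change was 0.19 in HeyA8 and -0.45 in PC3. Within ORC1 to ORC6, the subunits of the origin recognition complex, the medians were 0.0011 and -0.32, and ORC1 and ORC6 had a lower response in PC3, with differences of -0.91 ± 0.10 and -1.08 ± 0.10.

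CDC6, the ATPase that joins ORC to load the helicase, rose most of all 53 members in HeyA8. The gene lies on chromosome 17, 40287633 to 40304657. Its counts were 525, 545 and 434 after sNT8 and 1273, 1357 and 1299 after sG5C in HeyA8, a 2.62-fold rise (log2 fold change 1.39 ± 0.081, adjusted p = 5.19e-15). In PC3 CDC6 fell from 1477, 1466 and 1557 to 937, 919 and 869 (-0.72 ± 0.071, adjusted p = 7.31e-10). The groups did not overlap in either line. The difference between the lines was -2.09 ± 0.13 (edgeR adjusted p = 1.13e-15).

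CDT1, the partner of CDC6 in loading, did not follow it in HeyA8. Its counts there were 1010.2, 1066 and 1027 after sNT8 and 1040.02, 1158 and 1109.5 after sG5C, which overlap (0.091 ± 0.069, adjusted p = 0.2799). In PC3 CDT1 fell most of the group, from 1449, 1418 and 1501 to 789, 678 and 689 (-1.02 ± 0.077, adjusted p = 3.20e-12). GMNN, the inhibitor of CDT1, rose in HeyA8 from 631, 698 and 617 to 924, 1005 and 839.7 and fell in PC3 from 1141, 1139.6 and 1095 to 815, 843 and 810.1. The GMNN log2 fold changes were 0.51 ± 0.080 and -0.45 ± 0.073, without overlap in either line.

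ORC6 rose in HeyA8 from 365, 352 and 369 to 629, 648 and 594 (0.78 ± 0.086) and fell in PC3 from 2175, 2068 and 2297 to 1876, 1679 and 1696 (-0.32 ± 0.067). ORC1 did likewise, with 0.42 ± 0.082 in HeyA8 and -0.51 ± 0.072 in PC3. ORC4 rose in PC3, where its counts were 1702, 1717 and 1819.97 after sNT8 and 2435, 2676 and 2409 after sG5C. The log2 fold change there was 0.52 ± 0.065 (adjusted p = 7.08e-08) and its response was higher than in HeyA8 by 0.35 ± 0.088 (edgeR adjusted p = 0.001999), a difference not called with library totals as the scaling. The HeyA8 rise of ORC4 (0.19 ± 0.065) was not called without sNT8 B (adjusted p = 0.0725), sNT8 C (0.0609) or sG5C C (0.0969). ORC2 and ORC3 fell in both lines, ORC2 with -0.22 ± 0.059 and -0.32 ± 0.057 and ORC3 with -0.37 ± 0.061 and -0.51 ± 0.077. The differences between the lines did not pass for either gene (-0.09 ± 0.070 and -0.11 ± 0.090), nor for ORC5 (0.15 ± 0.11), though with library totals those of ORC2 (-0.30) and ORC3 (-0.33) did. ORC5 values were -0.19 in HeyA8, called lower only without sG5C C (adjusted p = 0.019), and -0.052 in PC3.

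Most helicase activation genes rose in HeyA8 and fell in PC3. Of the 7, CDC45, GINS1, GINS2, GINS4 and DBF4 rose, CDC7 fell and GINS3 did not pass, with a median log2 fold change of 0.28. In PC3, 6 fell and DBF4 did not pass, with a median of -0.76. All 7 had a lower response in PC3 (median difference -0.84).

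CDC45, which joins the helicase at the fork, had counts of 294, 326 and 338 after sNT8 and 483, 439 and 522 after sG5C in HeyA8. In PC3 the counts were 839, 814 and 913 and 397, 364 and 320.3. Groups were apart in both lines, with log2 fold changes of 0.59 ± 0.10 and -1.25 ± 0.094 and a difference of -1.82 ± 0.14 (edgeR adjusted p = 8.43e-13). The 4 GINS genes code for the ring that bridges the helicase and polymerase epsilon, and they did not move as a unit. GINS2 went from 229, 228 and 194 to 274, 319.5 and 284 in HeyA8 and from 1019, 955 and 935 to 405, 335 and 371 in PC3, with log2 fold changes of 0.43 ± 0.11 and -1.39 ± 0.090. GINS1 rose in HeyA8 by 0.63 ± 0.078 and had a small fall in PC3 (-0.18 ± 0.066, adjusted p = 0.0214), a fall not called without PC3 sNT8 A (adjusted p = 0.1096) or sG5C C (0.0911). GINS3 gave 0.065 in HeyA8, which did not pass, and fell in PC3 (-0.76 ± 0.078). GINS4 rose by 0.28 ± 0.090 in HeyA8, which was not called without sNT8 C (adjusted p = 0.0773), and fell in PC3 (-0.62 ± 0.10).

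The kinase and its activating subunit parted. CDC7, the kinase, fell in HeyA8 from 752, 807 and 822 to 665, 714 and 629.6 (-0.25 ± 0.078) and in PC3 from 1416, 1463 and 1464 to 748, 658 and 619 (-1.10 ± 0.078). The HeyA8 fall was not called without sG5C C (adjusted p = 0.0577) or with library totals (0.210). DBF4, the subunit that activates CDC7, rose in HeyA8 from 979, 1002 and 971 to 1128, 1192 and 1238 (0.27 ± 0.068, adjusted p = 0.00136). In PC3 DBF4 gave -0.14 ± 0.066 (adjusted p = 0.0778), called lower without sG5C A (adjusted p = 0.0295) and under TMM scaling, library totals and edgeR.

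The polymerase genes divided in HeyA8. Of the 9, POLE and PRIM1 rose there, POLA1, POLD1 and POLD2 fell and the rest did not pass, with a median of -0.012, while 8 fell in PC3 with a median of -0.89. The difference between the lines was called lower in PC3 for 8, with a median of -0.75, and PRIM2 did not pass (-0.021 ± 0.093).

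POLE, the catalytic subunit of the leading strand polymerase epsilon, had counts of 1914, 2192 and 1899 after sNT8 and 3144, 3055 and 2863 after sG5C in HeyA8. It rose there by 0.60 ± 0.063 (adjusted p = 2.64e-09) and in PC3 gave -0.18 ± 0.057 (adjusted p = 0.00861), from 5232, 5062 and 5394 to 4662, 4441 and 4753. That PC3 fall was not called without sNT8 C (adjusted p = 0.0624) or sG5C B (0.0610). Its partner POLE2 differed, at -0.087 and not passing in HeyA8 and -1.004 ± 0.087 in PC3.

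POLA1, the catalytic subunit of the priming polymerase alpha, fell in both lines. The HeyA8 counts were 984, 972 and 909 after sNT8 and 695, 728 and 612 after sG5C, and those of PC3 were 3279, 3534 and 3568 and 1389.95, 1304 and 1203. No library of 1 group reached the other in either line, and the log2 fold changes were -0.50 ± 0.078 and -1.41 ± 0.067. The fall was larger in PC3, with a difference of -0.90 ± 0.094 (edgeR adjusted p = 9.60e-10). Its regulatory partner POLA2 gave 0.05 in HeyA8, which did not pass, and fell in PC3 (-0.76 ± 0.068). Of the primase subunits, PRIM1 (catalytic) rose in HeyA8 (0.22 ± 0.085) and fell in PC3 from 766, 729 and 769.6 to 412, 320.2 and 319 (-1.11 ± 0.10). The HeyA8 rise of PRIM1 was not called without sNT8 B (adjusted p = 0.140) or sG5C B (0.201), nor without the filter on low counts (0.0538). PRIM2, the accessory subunit, passed in neither line.

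Among the subunits of the lagging strand polymerase delta, POLD1, which is catalytic, fell from 2029, 2114 and 1941 to 1553, 1621 and 1491 in HeyA8 and from 3252, 2981 and 3103 to 1472, 1349.6 and 1388 in PC3. Its log2 fold changes were -0.38 ± 0.062 and -1.15 ± 0.064. POLD2 fell in both lines (-0.32 ± 0.057 and -0.89 ± 0.061), and POLD3 gave 0.086 in HeyA8, which did not pass, and fell in PC3 (-0.62 ± 0.076).

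Of the 6 genes of the clamp and its loader, RFC1, RFC3, RFC4 and RFC5 rose in HeyA8, where PCNA and RFC2 did not pass. In PC3 5 fell and RFC1 did not pass, with medians of 0.16 and -0.65. PCNA codes for the sliding clamp and RFC1 to RFC5 for the complex that loads it. PCNA counts overlapped in HeyA8, at 1713, 1684 and 1615 after sNT8 and 1617, 2009.6 and 1764 after sG5C (0.10 ± 0.069, adjusted p = 0.236). Library sG5C A had the lowest PCNA count of the sG5C group in HeyA8, and PCNA was called higher without it (adjusted p = 0.0309) and with library totals (0.00202). In PC3 PCNA fell from 4037, 4124 and 4240.3 to 2321, 2226 and 1868 (-0.96 ± 0.069, adjusted p = 3.08e-12).

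RFC3 differed most between the lines within the loader. It rose in HeyA8 from 1077, 1239.9 and 1156 to 1508, 1594 and 1511 (0.41 ± 0.067) and fell in PC3 from 1639, 1792 and 1706 to 999, 1032 and 955 (-0.78 ± 0.070), a difference of -1.17 ± 0.088 (edgeR adjusted p = 4.40e-13). RFC2 fell most in PC3 (-1.06 ± 0.073) and gave -0.14 in HeyA8, which did not pass. RFC1, the large subunit, had a difference of -0.032 ± 0.075 between the lines that did not pass. RFC1 itself was called higher after sG5C in PC3 without sG5C C (0.15, adjusted p = 0.0474). Its small HeyA8 rise (0.15 ± 0.057) was not called without sNT8 B (adjusted p = 0.196), sNT8 C (0.0675), sG5C B (0.141) or sG5C C (0.0772). The HeyA8 rise of RFC4 (0.18 ± 0.065) was not called without sNT8 C (adjusted p = 0.131), sG5C B (0.135) or sG5C C (0.0582). For RFC5 the HeyA8 rise was 0.34 ± 0.069, and the PC3 fall (-0.21 ± 0.071) was not called without sNT8 B (adjusted p = 0.0503) or sG5C C (0.0604).

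The single-strand binding and Okazaki fragment genes went both ways in PC3. In HeyA8, RPA1, RPA2, RPA3 and FEN1 rose and LIG1 did not pass (median 0.42). In PC3, FEN1 and LIG1 fell, RPA1 rose and the other 2 did not pass (median -0.096, over values from -0.91 to 0.50). RPA1, the large subunit of the trimer that coats single-stranded DNA, rose in both lines, from 4771, 4377 and 4319 to 5831, 6485 and 5688 in HeyA8 and from 3503, 3528 and 3522 to 5133, 4997 and 4815 in PC3. All sG5C libraries were above all sNT8 libraries, with log2 fold changes of 0.42 ± 0.059 and 0.50 ± 0.057, and the difference of 0.10 ± 0.071 did not pass (edgeR adjusted p = 0.296). RPA2 and RPA3 gave -0.10 and 0.038 in PC3 and rose by 0.35 ± 0.077 and 0.46 ± 0.074 in HeyA8.

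FEN1, the nuclease that trims the flaps of Okazaki fragments, rose in HeyA8 from 804, 888 and 722 to 1389, 1454 and 1301 (0.78 ± 0.076, adjusted p = 4.09e-10). In PC3 it fell from 2266, 2419.9 and 2315 to 2047, 1874 and 1765 (-0.30 ± 0.066, adjusted p = 2.88e-04). FEN1 shares 6.70% of its exon bases with TMEM258 on the opposite strand. LIG1, the ligase that seals the fragments, fell only in PC3 by these calls (-0.91 ± 0.082), at 0.053 in HeyA8, and the difference was -0.94 ± 0.11 (edgeR adjusted p = 1.84e-08).

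All 4 nucleotide synthesis genes rose in HeyA8 after sG5C, with a median of 0.47, and 3 fell in PC3, with a median of -0.14. RRM1 and RRM2 code for the subunits of ribonucleotide reductase, TYMS for thymidylate synthase and TK1 for thymidine kinase. RRM2 went from 1963, 2276 and 1892 to 2831, 3126 and 2676 in HeyA8 and from 4258, 4702 and 4653 to 2685, 2378 and 2169 in PC3. The groups did not overlap, and the log2 fold changes were 0.49 ± 0.069 and -0.92 ± 0.069, with a difference of -1.39 ± 0.10 (edgeR adjusted p = 1.20e-13). RRM1, its partner, gave 0.19 ± 0.055 in HeyA8 and -0.14 ± 0.059 in PC3, and the difference of -0.31 ± 0.071 passed (edgeR adjusted p = 6.09e-04).

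TK1 had the largest rise of the 4 in HeyA8, from 1319, 1471 and 1111 to 1958, 2057 and 1732 (0.56 ± 0.087, adjusted p = 1.62e-05). Its PC3 fall was small (-0.15 ± 0.063, adjusted p = 0.0495) and was not called when any 1 of sNT8 A, sNT8 B, sNT8 C, sG5C B or sG5C C was left out (adjusted p from 0.0602 to 0.1495). The PC3 fall of RRM1 (adjusted p = 0.04104) was not called without sNT8 B (0.198), sNT8 C (0.0940), sG5C B (0.0694) or sG5C C (0.130). TYMS rose in HeyA8 from 875, 949 and 793 to 1149.8, 1289.6 and 1130.1 (0.45 ± 0.076) and gave 0.081 in PC3, where the groups overlap. Its difference between the lines (-0.34 ± 0.12, edgeR adjusted p = 0.0192) was not called without HeyA8 sNT8 C (adjusted p = 0.0751), HeyA8 sG5C B (0.0677) or PC3 sG5C C (0.0627). TYMS shares 39.2% of its exon bases with ENOSF1 on the opposite strand and RRM2 shares 20.2% with AC007240.1 on its own strand, so the counts of both are less certain. The same holds for POLA2, which shares 35.1% with AP000944.2 on its own strand, a gene with no reads recorded, which may not have been counted. RFC5 is a further case, as it shares 5.72% with WSB2 on the opposite strand. WSB2 had 82643 reads over all libraries against 19161 for RFC5. Overlaps also make the counts of other members less certain. MCM2 shares 22.71% with AC023593.1 and GINS4 21.17% with AC009630.2, both on the opposite strand. TIPIN shares 21.02% with RPL9P25 and PRIM1 14.85% with AC117378.1, both on the same strand. RRM2 and TYMS also have pseudogenes, as do PCNA, RPA2, RFC3, RFC5, FEN1, DBF4 and POLD2.

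**Figure D4:**
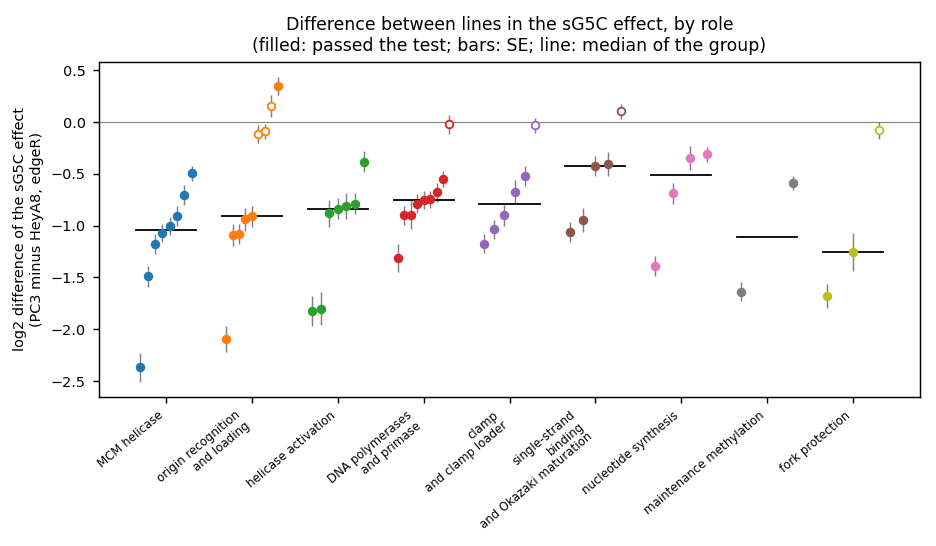
sG5C effect in PC3 minus that in HeyA8 (log2 scale, edgeR, 18 libraries) for the 53 members by role, with filled points for genes that passed the test and a line at the median of each role. The medians run from -0.42 for single-strand binding and Okazaki fragment genes to -1.25 for fork protection, and ORC4, at 0.35, is the filled point above 0.

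UHRF1 and DNMT1, which copy DNA methylation onto new strands, fell in PC3. UHRF1, the reader of hemimethylated DNA, went from 4018, 3807 and 3789 to 1492, 1478 and 1212 there (-1.48 ± 0.072, adjusted p = 6.11e-16), among the largest falls of the 53. In HeyA8 its counts were 1599, 1853 and 1687 after sNT8 and 1919.9, 2052 and 1863 after sG5C, a rise of 0.18 ± 0.065 (adjusted p = 0.01800) that was not called without sNT8 A (adjusted p = 0.118), sNT8 C (0.0543) or sG5C B (0.1003). The difference between the lines was -1.64 ± 0.093 (edgeR adjusted p = 2.86e-16). DNMT1, the methyltransferase, overlapped in HeyA8, at 7711, 7954 and 7129.9 and 7585, 7765 and 7422, and fell in PC3 (-0.61 ± 0.053). Its HeyA8 value was near 0 and was called higher with library totals (adjusted p = 0.0126).

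Of the fork protection genes, CLSPN codes for claspin, the mediator of the replication checkpoint, and TIMELESS and TIPIN for a pair that travels with the fork. CLSPN rose in HeyA8 from 442, 491 and 419.8 to 739, 741 and 619 (0.63 ± 0.090) and fell in PC3 from 1393, 1436 and 1542 to 725, 747 and 621 (-1.06 ± 0.080). TIPIN fell in PC3 from 324, 271 and 312 to 106, 131 and 93.3 (-1.46 ± 0.14, adjusted p = 5.47e-10), while the groups overlapped for its partner TIMELESS, at 2978, 2789 and 2996 and 3001, 2867 and 2787 (-0.018 ± 0.061, adjusted p = 0.822). Between the lines the response differed by -1.25 ± 0.18 for TIPIN, and that of TIMELESS by -0.081 ± 0.081, which did not pass. In HeyA8 neither passed (-0.18 for TIPIN and 0.083 for TIMELESS).

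The summed level of the 53 genes followed these changes. In CPM, reads scaled to the library total, the members summed to 2389.7, 2529.9 and 2328 in the HeyA8 sNT8 libraries and to 2955, 2970.5 and 2785 after sG5C. In PC3 they summed to 4264, 4246 and 4355 after sNT8 and to 2856, 2796 and 2724 after sG5C. The sums of the lines were apart after sNT8 and overlapped after sG5C, with group means ± SD of 2904 ± 103 in HeyA8 and 2792 ± 66.1 in PC3 (n = 3 each). These sums are dominated by the abundant members and take no account of shifts in the rest of the RNA.

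sCAG lowered the replication genes in both lines. In HeyA8, 52 of 53 fell, against 30.2% of all genes, and ORC4 did not pass, with a median of -1.93. In PC3, 47 fell, against 23.2% of all genes, ORC2, ORC4 and POLD2 rose, against 27.6%, and ORC5, RFC1 and TIPIN did not pass, with a median of -1.39. Groups were apart for 52 members in HeyA8 and 50 in PC3, against 64% and 57.3% of all genes. In all, 59.5% of genes were called in HeyA8 and 50.8% in PC3. The sNT8 libraries are those of the sG5C comparisons. With library totals the median of all genes moved by -0.12 in HeyA8 and -0.169 in PC3. The genes higher and lower were then 5082 and 7911 in HeyA8, in place of 6425 and 6602, and 4129 and 7957 in PC3, in place of 6339 and 5328.

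Nucleotide synthesis genes had the lowest median of the roles after sCAG in both lines. In HeyA8 the medians ran from -1.18 for the clamp and its loader, -1.36 for single-strand binding and Okazaki fragment genes, -1.64 for origin recognition and loading and -1.66 for the polymerases, through -1.79 for maintenance methylation, -2.25 for the MCM genes and -2.32 for fork protection, to -2.78 for helicase activation and -3.76 for nucleotide synthesis. In PC3 they lay closer together, from -0.84 for single-strand binding and Okazaki fragment genes to -1.77 for nucleotide synthesis.

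RRM2 (chromosome 2, 10120698 to 10131419) fell most of all members in HeyA8. Its counts were 1853, 2147 and 1775 after sNT8 and 41.2, 61.8 and 57.1 after sCAG, a 35.8-fold fall on the scale with 1 added (-5.16 ± 0.13, adjusted p = 5.91e-19). In PC3 RRM2 fell from 4293, 4779.9 and 4710.3 to 1346, 1409 and 1381, or 3.33-fold (-1.73 ± 0.052). TK1 fell from 1244, 1388 and 1043 to 59.8, 67.1 and 63.7 in HeyA8 (-4.24 ± 0.11) and gave -1.97 ± 0.064 in PC3. RRM1 gave -3.28 ± 0.057 and -1.57 ± 0.050. TYMS fell in both lines (-1.86 ± 0.095 and -1.80 ± 0.11), and the difference between the lines of 0.078 ± 0.14 did not pass.

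Loading and activation factors were also low in HeyA8 after sCAG. CDC45 reached 10.3, 12.8 and 21.96 from 277, 307 and 317 (-4.30 ± 0.22), ORC1 reached 37.1, 39.4 and 45.02 from 489, 537 and 494 (-3.62 ± 0.13), and MCM10 reached 27.8, 25.6 and 39.5 from 312, 442 and 351 (-3.54 ± 0.18). CDT1 (-3.54 ± 0.11), ORC6 (-3.40 ± 0.16) and CLSPN (-3.79 ± 0.15) fell as well. The other ORC genes gave smaller values, with ORC3 at -1.02 ± 0.058, ORC2 at -0.33 ± 0.053, ORC5 at -0.61 ± 0.090 and ORC4 at 0.032 ± 0.062 (adjusted p = 0.684). Among the polymerases, PRIM1 fell most, from 544, 498 and 546 to 31.9, 24.5 and 34.04 (-4.10 ± 0.15), and POLD2 least, from 5038, 4638 and 4422 to 4013, 4181 and 4188 (-0.19 ± 0.049). PCNA had the smallest fall of the clamp genes in HeyA8 (-0.53 ± 0.060) and RFC3 the largest (-2.91 ± 0.089).

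In PC3 the largest falls after sCAG were those of ORC1, from 1830.4, 1737 and 1933 to 347, 383 and 362 (-2.33 ± 0.071), and GINS2, from 1027, 971 and 946 to 206, 189 and 210.03 (-2.28 ± 0.086). MCM10 gave -2.25 ± 0.10, CDC45 -2.23 ± 0.091, CDC6 -2.20 ± 0.076, POLE -1.80 ± 0.049 and FEN1 -1.78 ± 0.059. ORC4 rose from 1716, 1745 and 1842 to 2471, 2363 and 2195 (0.41 ± 0.056) and ORC2 from 4872, 4746 and 4876 to 5672, 5613 and 5858 (0.24 ± 0.043). The rise of POLD2 was small (0.14 ± 0.047, adjusted p = 0.0187) and was not called without sNT8 C (adjusted p = 0.166), sCAG B (0.109) or sCAG C (0.0572), nor under TMM scaling, library totals, edgeR or DESeq2. ORC2 was not called with library totals (adjusted p = 0.171).

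**Figure D5:**
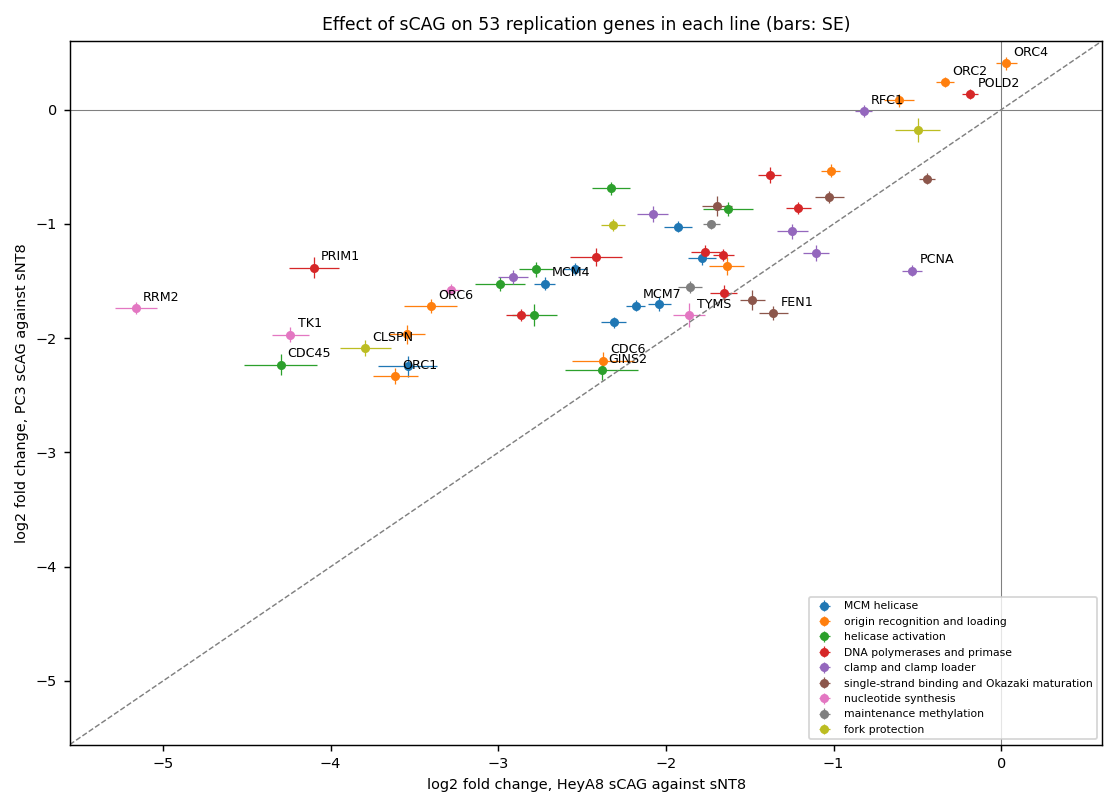
Log2 fold change of each of the 53 genes after sCAG in HeyA8 (horizontal axis) and PC3 (vertical axis), with bars for the standard error, n = 3 libraries a group. Most genes lie above the diagonal, with RRM2 at -5.16 in HeyA8 and -1.73 in PC3, and PCNA below it, at -0.53 and -1.41.

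The fall after sCAG was smaller in PC3 for most members. The sCAG effect in PC3 minus that in HeyA8 was positive and called for 41 of 53, against 22.1% of all genes, and negative for PCNA and FEN1, against 15% (37.1% called in all). The median difference was 0.74. It was largest for RRM2 (3.45 ± 0.15), PRIM1 (2.77 ± 0.19), TK1 (2.31 ± 0.15) and CDC45 (2.10 ± 0.24). The HeyA8 counts of CDC45 behind its value, 10.3, 12.8 and 21.96, are the lowest among the 53. PCNA fell more in PC3, with a difference of -0.87 ± 0.095 (edgeR adjusted p = 1.88e-09), from 4070.4, 4192 and 4292 to 1581, 1552 and 1591, and so did FEN1 (-0.40 ± 0.11). The difference after sCAG did not pass for CDC6 (0.17 ± 0.16, edgeR adjusted p = 0.448), GINS2 (0.065 ± 0.20) or GMNN (0.29 ± 0.12). CDC6 counts after sCAG in HeyA8 were 73.2, 76.7 and 128, with library C the highest, and without it the difference was 0.44 and passed (adjusted p = 0.0282). GMNN passed without HeyA8 sCAG C (0.0311) or PC3 sCAG B (0.0389).

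Set directly against sG5C, sCAG gave lower levels of nearly all members in HeyA8. In edgeR on the 9 libraries of the line, 52 were lower, against 33.4% of all genes, and POLD2 was higher, against 31.9% (65.2% called in all), with a median of -2.16. The lowest log2 fold changes were those of RRM2 (-5.67 ± 0.11), CDC45 (-4.92 ± 0.18), MCM10 (-4.78 ± 0.15) and PRIM1 (-4.36 ± 0.13). The higher POLD2 (0.13 ± 0.048, adjusted p = 0.0183) was not called without sG5C A (adjusted p = 0.051) or sG5C C (0.0568), and with library totals POLD2 was called lower (-0.12). That scaling gave 5341 genes higher and 10438 lower in HeyA8, in place of 7402 and 7757, and moved the median of all genes by -0.248. Among the small falls, ORC2 (-0.12 ± 0.052) was not called when any of 7 libraries was left out, TIPIN (-0.32 ± 0.14) without sCAG B, sCAG C, sG5C B or sG5C C, and ORC4 (-0.17 ± 0.060) without sCAG A or sG5C C (adjusted p from 0.0538 to 0.212 over the 3 genes).

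In PC3 the same comparison gave smaller values. There 40 members were lower after sCAG than after sG5C, against 31.1% of all genes, 5 were higher (MCM3, ORC2, POLA1, POLD2 and TIPIN), against 31.7%, and 8 did not pass (62.8% called in all), with a median of -0.68. By role the median was -1.63 for nucleotide synthesis, -0.99 for fork protection, -0.91 for origin recognition and loading and -0.89 for helicase activation. It was -0.87 for single-strand binding and Okazaki fragment genes and -0.69 for the MCM genes. The clamp and its loader had -0.43, the polymerases -0.29 and maintenance methylation -0.23. TYMS (-1.88 ± 0.10), ORC1 (-1.82 ± 0.075) and TK1 (-1.82 ± 0.064) were lower after sCAG by the most. The sG5C libraries here are those that were set against sNT8. TIPIN was higher by the most, at 106, 131 and 93.3 after sG5C and 275, 253 and 283 after sCAG on the scales of their own tables (1.28 ± 0.13, adjusted p = 3.35e-09). MCM3 was higher by 0.50 ± 0.057, POLA1 by 0.56 ± 0.062, ORC2 by 0.57 ± 0.049 and POLD2 by 1.03 ± 0.056. UHRF1 (-0.075 ± 0.067), RFC2 (0.0044 ± 0.071), GINS3 (-0.10 ± 0.072) and ORC3 (-0.028 ± 0.071) did not pass, though UHRF1 and GINS3 were called lower with library totals and UHRF1 also without sG5C C (adjusted p = 0.0202).

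The lines differed before any comparison of treatments. Among the sNT8 libraries, 42 members were higher in PC3, against 38.6% of all genes, 8 were lower (MCM4, ORC3, PRIM2, RFC1, RFC4, RPA1, LIG1 and TYMS), against 32.8%, and MCM5, GINS4 and RRM1 did not pass (71.3% called in all). The median log2 difference was 0.73. The widest gaps were ORC6 (2.53 ± 0.070), GINS3 (2.46 ± 0.085) and GINS2 (2.10 ± 0.11), and PRIM2 was lower in PC3 by the most (-1.01 ± 0.066). With library totals, LIG1 and ORC3 were not called and MCM5, GINS4 and RRM1 were higher in PC3, and 12679 genes were higher and 6952 lower in place of 10456 and 8879, with the median of all genes moved by 0.254. GINS4 was also called higher without HeyA8 sNT8 B (adjusted p = 0.0233), and RFC5 (0.19 ± 0.067) was not called without HeyA8 sNT8 C (0.0893). Nothing in the labels says that both lines were handled at once, so line and handling cannot be told apart.

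Per length, POLD2 was the most abundant member in HeyA8 and PCNA in PC3. As RPKM (mean ± SD, n = 3), the highest members in HeyA8 sNT8 cells were POLD2 (36.4 ± 1.52), RRM1 (33.5 ± 1.12), MCM7 (30.9 ± 1.63) and PCNA (30.6 ± 0.487). GINS3 was lowest (1.102 ± 0.0467), after GINS2 (1.79 ± 0.141), TIPIN (1.87 ± 0.263) and MCM10 (1.94 ± 0.371), and the median member stood at 8.37. In PC3 sNT8 cells PCNA was highest (86.5 ± 2.54), then POLD2 (60.2 ± 3.17) and MCM7 (59.2 ± 0.717), which lie within each other's spread. GINS4 was lowest there (3.12 ± 0.155), after TIPIN (3.38 ± 0.334) and MCM10 (4.34 ± 0.177), and the median member stood at 13.7. The median of all genes with reads was 0.640 in HeyA8 and 0.679 in PC3 on this scale.

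Another 38 replication genes outside the 53 were followed in the same fits, among them other initiation, polymerase, chromatin assembly and nucleotide supply genes. After sG5C, 14 rose and 10 fell in HeyA8 (median 0.067) and 6 rose and 26 fell in PC3 (median -0.33), where the 53 had medians of 0.18 and -0.68. Over all genes 24.5% rose and 27.9% fell in HeyA8 and 28.5% and 29.2% in PC3, so the share of the 38 that fell in HeyA8 was near that of all genes. The difference between the lines was called lower in PC3 for 24, against 14.6% of all genes, and higher for 8, near the 18.3% of all genes. DTL, a substrate receptor for the ubiquitin ligase that removes CDT1, fell in PC3 (-1.33 ± 0.072) and had the lowest difference of the 38 (-1.60 ± 0.11), while TK2, the mitochondrial thymidine kinase, had the highest (1.60 ± 0.16). After sCAG, 31 fell and 2 rose in HeyA8 (30.2% and 29.3% of all genes) and 29 fell and 6 rose in PC3 (23.2% and 27.6%), with ASF1B, a histone chaperone, lowest in both (-5.09 ± 0.19 and -2.31 ± 0.064). Of those with the largest changes, the others were POLD4 (-1.15 ± 0.13) and CHTF8 (-1.04 ± 0.062) after sG5C in HeyA8, DSCC1 (-1.50 ± 0.10) after sG5C in PC3 and TICRR (-2.20 ± 0.065) after sCAG in PC3. SAMHD1, which degrades nucleotides, was higher after sCAG than after sG5C in PC3 (2.16 ± 0.070). The 11 nucleotide supply genes among the 38 had sCAG medians of -0.46 in HeyA8 (7 fell, 1 rose) and -0.45 in PC3 (7 fell, 4 rose). The 4 nucleotide synthesis members had -3.76 and -1.77. After sG5C in HeyA8 the median of the 11 was -0.13 (3 rose, 5 fell), where that of the 4 was 0.47.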

How the data were processed

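Total RNA libraries (TruSeq kit, per the labels' protocols) from 18 transfected samples were used, and the gene lists and members were chosen with earlier results of these data known. TopHat, Bowtie2, HTSeq, DESeq2 and hg38 are named in the submitters' processing notes, while versions, annotation and strand setting are not in the sources used here. The authors deposited 4 tables of 58395 genes, each a short RNA against sNT8 in 1 line. Their signal values are normalized counts per gene, read counts divided by a size factor, per the file headers and the values. The deposited tables also hold log2 fold changes, p-values and a test score (the statistic), and the authors' own test was not used here.

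Dividing by the smallest step returned whole reads for 100% of values within 1e-06, so depth was known (31232377 to 41384838 reads). Counting error is small at the members' levels, except at the lowest counts. Comparisons with sNT8 were made within a table by limma 3.58.1 (trend, robust) on log2(normalized count + 1) after edgeR's filterByExpr (minimum 10), with Benjamini-Hochberg adjustment over all genes and a threshold of 0.05. Comparisons across tables used the quasi-likelihood test of edgeR 4.0.16 with TMM on recovered reads, over 9 libraries of a line or all 18, and their SE is the fold change divided by the root of F. DESeq2 1.42.0 was an alternative, with other scalings, pseudocount 0.1, no filter, a replicate block and each library left out. Deviations of same-lettered libraries from their group means correlated weakly (-0.034 to 0.128, above 0.1 only for the A libraries of PC3 sCAG and sNT8). Letters were therefore not used as pairs. Reads per kilobase used the union of exons of GENCODE 29. All 53 members are accounted for, and values are given by role for the genes with the largest and smallest changes. The scripts were tested on simulated data.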

Additional observations from a re-analysis of the deposited data

Results flagged for a closer look

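The response to sG5C differed between the lines, with opposite calls in each, for 22 genes, and the test of the difference itself (edgeR, PC3 effect minus HeyA8 effect, log2 scale) passed for all of them. That test used the libraries by which the 22 were picked, so it is not separate support. The share of all genes with opposite calls was not counted. The differences of the 22 are listed by size. The largest were MCM10 (-2.37), CDC6 (-2.09), CDC45 (-1.82), GINS2 (-1.8), CLSPN (-1.68), UHRF1 (-1.64), RRM2 (-1.39) and PRIM1 (-1.31). Next came RFC3 (-1.17), ORC6 (-1.08), MCM8 (-1.07), FEN1 (-1.06), GMNN (-0.941), ORC1 (-0.911), MCM6 (-0.907) and GINS4 (-0.88). The smallest were GINS1 (-0.787), POLE (-0.754), TK1 (-0.686), RFC4 (-0.671), RFC5 (-0.521) and RRM1 (-0.312).

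After sCAG, ORC2 and POLD2 fell in HeyA8 and rose in PC3, with differences of 0.591 and 0.339 that passed the same test. The PC3 rise of POLD2 was called in neither edgeR nor DESeq2.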

How the results depend on the processing

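Of the values of named genes under the alternatives, 2190 kept their side of the threshold, 29 lost the call and 25 gained it. Another 5 changed sign with a call in the main fit, the alternative or both. Changes of sign without a call in either were counted among the 2190. Of the summaries over the 53 genes, 359 were within their limits and 13 moved. The limit for a median was the median SE of the members. The limits for counts were wide, so that 23 members higher in HeyA8 sG5C in place of 29 counted as within them. Library totals as the scaling moved most of the 13. With them the median log2 fold change was 0.314 for HeyA8 sG5C, -2.05 for HeyA8 sCAG, -1.57 for PC3 sCAG, -2.41 and -0.795 for sCAG against sG5C in HeyA8 and PC3, -1.04 for the sG5C difference between the lines and 0.985 for PC3 against HeyA8 after sNT8. Members higher were then 1 in PC3 sCAG, 0 in HeyA8 sCAG against sG5C and 0 for the sG5C difference. The 5 counted changes of sign also came with library totals. They were DNMT1 in HeyA8 sG5C (0.1325), POLD2 in PC3 sCAG (-0.03466) and in HeyA8 sCAG against sG5C (-0.1152), and MCM5 (0.2327) and RRM1 (0.1819) between the sNT8 groups.

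Leaving out 1 library gave from 23 to 30 members higher in HeyA8 sG5C, with medians from 0.131 to 0.193. In PC3 sG5C it gave from 39 to 44 members lower, with medians from -0.725 to -0.663. It also gave HeyA8 sCAG medians from -2.02 (without sCAG A) to -1.85 and from 0 to 1 members higher in HeyA8 sCAG against sG5C. Without 1 library an arm holds 2, assumed to vary like the rest. Calls changed in some alternative for 20 members in HeyA8 sG5C, 8 in PC3 sG5C, 4 in PC3 sCAG and 0 in HeyA8 sCAG.

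With the replicate block, 28 members rose in HeyA8 sG5C in place of 29, since RFC1 was lost (adjusted p = 0.0564), and ORC5 was gained in PC3 sCAG against sG5C, with 6 higher in place of 5. It changed no other call of a member. Each library correlated best with its own letter in every comparison with sNT8 except HeyA8 sG5C, a hint from the data and not the design. Depth limits CDC45 in HeyA8 after sCAG most, where the counts were lowest.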

Other observations

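None of the transcripts of the 53 genes held a run of 6 or more CTG units (0 of 53), against 146 of 58676 genes with transcripts in the annotation. The sequences of the short RNAs were not used here, and no test was made of this count.

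Summed by role, the 4 nucleotide synthesis genes held a mean of 254 CPM in HeyA8 after sNT8, 352 after sG5C and 22.3 after sCAG.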
